A study of Mus musculus with 10 samples.

Results

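The 10 genes described here are known to be induced by glucocorticoids or by cell stress: Tsc22d3, Ddit4, Mt2, Mt1, Cdkn1a, Sgk1, Klf9, Nfkbia, Zfp36 and Cebpb. They were followed across mouse pairs in the aortic arch of mice prone to atherosclerosis. Probes were taken by gene symbol from the platform annotation. Of the 10 genes, 9 had a named probe and 9 were measured. They hold 11 of the 13872 probes, and 9 of these 11 carried values. No probe carried the symbol Mt1 there, so Mt1 was not analysed here, and the other probes of Cdkn1a and Cebpb were blank on every array. All 9 measured genes had values on all 10 arrays, as had 3612 probes in all. By the looser rule for testing, 4866 probes (4299 genes) were complete for 3 or more pairs and could be tested. The genes were chosen on the log2 ratios of these same arrays, for swinging together across the pairs, so the ratios below describe that choice and are not tests of it.

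The mice lacked apolipoprotein E and MyD88 (MyD88-/-, apoE-/-, here double-null) or apolipoprotein E alone (apoE-/-, here apoE-null). Both genotypes thus lack apolipoprotein E, which clears lipoproteins from blood, and differ in MyD88, the adaptor of most Toll-like receptors and of the interleukin-1 receptor family. The labels of 8 of the 10 arrays give 8 weeks of high fat diet, and the remaining arrays carry mice that also appear on those. Ages are not given in the labels. Each two-colour array set 1 double-null mouse against 1 apoE-null mouse, and each of 5 mouse pairs was hybridised with the dyes both ways, giving 2 arrays and 1 replicate per pair. Both mice of pair 1 were female, both mice of pairs 2, 3 and 4 were male, and pair 5 held a male double-null mouse and a female apoE-null mouse. The apoE-null mouse was therefore female in pairs 1 and 5 and male in pairs 2, 3 and 4. Values are log2 ratios of double-null over apoE-null, turned from the deposited direction, so 1 unit is a 2-fold difference and a negative value means less transcript in the double-null mouse. A ratio within a pair cannot tell whether the double-null or the apoE-null mouse moved, and in whole tissue fewer cells of a type and less RNA per cell cannot be told apart.

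The targeted gene and the sex-linked genes were read first. Myd88 was below 0 on all 10 arrays, at -0.90 ± 0.22 (log2 ratio, SD, n = 5 pairs), and passed in limma with an adjusted p of 0.0248. Arrays carried 4581 to 7057 values each, and 49.1% to 67.0% of cells were blank. The labels of the arrays of pair 1 give the same mouse numbers with genotypes exchanged. Myd88 read -0.91 and -1.20 on these 2 arrays, so it was low on the side labelled double-null on both. In pair 5, the Xist probes read -3.23 to -5.29 and Eif2s3y read 1.93 and 2.63, in the direction of the labelled sexes. In pair 1, with both mice female, the Xist probes read -0.45 to -0.77. In the male pairs 2 to 4, Eif2s3y read -0.15 to -0.69 where it had values.

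Glucocorticoids are adrenal steroids that enter cells and bind the glucocorticoid receptor, which then moves to the nucleus and raises or lowers transcription of its target genes. The binding sequence is an inverted repeat called the glucocorticoid response element. Several of the 9 genes are textbook targets of this receptor, and most also answer other stresses: metals for the metallothioneins, energy and oxygen shortage for Ddit4, DNA damage through p53 for Cdkn1a, and NF-κB for Nfkbia.

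The 3 upstream sequences are printed because each holds a binding motif of a factor known to act on the gene. They are the 250 bases before an annotated transcription start, read from RefSeq on GRCm38.p6 for all 10 genes (18 windows), with the motif in capitals. The Sgk1 window lies at chr10:21993640-21993889 on the plus strand and holds the full palindrome of the glucocorticoid response element (AGAACA, any 3 bases, TGTTCT) 189 bases before the start. The Mt2 window, chr8:94172368-94172617 on the plus strand, holds 3 matches of the metal response element core, TGCACNC or TGCGCNC on either strand. The Nfkbia window, chr12:55492648-55492897 on the minus strand, holds 1 NF-κB match, searched on either strand as GGG, any 2 bases, TTTCC, 29 bases before the start.
Sgk1: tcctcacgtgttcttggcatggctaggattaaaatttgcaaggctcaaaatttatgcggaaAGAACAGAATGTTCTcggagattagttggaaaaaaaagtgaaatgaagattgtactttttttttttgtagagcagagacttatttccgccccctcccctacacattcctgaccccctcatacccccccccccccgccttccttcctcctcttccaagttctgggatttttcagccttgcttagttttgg
Mt2: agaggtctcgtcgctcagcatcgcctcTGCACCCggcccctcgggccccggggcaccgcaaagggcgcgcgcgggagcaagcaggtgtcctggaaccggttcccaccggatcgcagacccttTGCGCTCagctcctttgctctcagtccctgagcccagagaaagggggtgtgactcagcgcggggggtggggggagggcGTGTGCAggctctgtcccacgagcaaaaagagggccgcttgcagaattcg
Nfkbia: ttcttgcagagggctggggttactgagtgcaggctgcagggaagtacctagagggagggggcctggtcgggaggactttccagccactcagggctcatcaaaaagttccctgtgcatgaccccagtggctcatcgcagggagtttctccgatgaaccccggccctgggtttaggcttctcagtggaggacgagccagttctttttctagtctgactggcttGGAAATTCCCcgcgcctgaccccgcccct

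The full palindrome was found in 3 of 32851 upstream windows of the same length (0.00913%) and, among the 18 windows of the 10 genes, in 1 of the 6 of Sgk1. A relaxed form (G, any base, ACA, any 3 bases, TGT, any base, C), which overlaps the palindrome, was in 0.387% of all windows and in windows of Sgk1 and Mt1. The metal core was in 21.4% of all windows and in those of Mt1, Mt2, Ddit4 and Nfkbia, and the NF-κB motif was in 1.41% of all windows. The E-box CACGTG was in 6.02% of all windows and in 1 of Sgk1, and the cyclic AMP response element TGACGTCA, in 1.55% of all windows, was in none of the 18. The 3 windows of Tsc22d3, a textbook glucocorticoid target, held neither form of the glucocorticoid motif. These matches describe letters in a short window and say nothing of distant sites.

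Tsc22d3, Ddit4, Mt2 and Cdkn1a were below 0 in pairs 1 and 5 and above 0 in pairs 2, 3 and 4, on both arrays of every pair. The swings were wide: the largest, that of Ddit4, spanned 4.41 log2 units. With Nfkbia, 5 of the 9 genes had this order of signs, against 4.54% of 3192 genes measured in all 5 pairs, a share given beside a choice that used these same values. The reverse order, above 0 in pairs 1 and 5 and below 0 in the 3 male pairs, was found in 2.73% of genes and in none of the 9.

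Tsc22d3 (probe 5281) encodes GILZ, a leucine zipper protein that mediates part of the anti-inflammatory action of glucocorticoids. It read -2.02 and -1.67 on the arrays of pair 1 and -1.20 and -1.29 on those of pair 5. It read 1.61 and 1.55 in pair 2, 1.63 and 1.95 in pair 3, and 1.95 and 1.78 in pair 4. The male pairs thus lay within a narrow band of pair means, 1.58 to 1.86, while the double-null mouse had 3.59-fold less transcript than its partner in pair 1 and 2.37-fold less in pair 5. Over 5 pairs the mean was 0.43 ± 1.82 (SD, n = 5 pairs), a mean that none of the pairs was near.

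Ddit4 (probe 7967) encodes REDD1, an inhibitor of mTORC1 that is induced by glucocorticoids and hypoxia. Its array values were -2.75 and -1.81 in pair 1, 1.27 and 1.66 in pair 2, 1.70 and 2.56 in pair 3, 1.15 and 0.99 in pair 4, and -1.53 and -1.44 in pair 5. The double-null mouse had 4.38-fold more transcript in pair 3, where the ratio was highest, and 4.86-fold less in pair 1, where it was lowest. The mean was 0.18 ± 1.94 (SD, n = 5 pairs).

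Mt2 (probe 12550) encodes a metallothionein, a small cysteine-rich protein that binds zinc and copper. It read -2.77 and -2.38 in pair 1 and -2.58 and -2.44 in pair 5, the lowest pair means of the 9 genes in those pairs (-2.58 and -2.51). It read 0.41 and 0.89 in pair 2, 0.29 and 1.08 in pair 3, and 0.32 and 0.98 in pair 4, with pair means of 0.65, 0.69 and 0.65. The swing was lopsided: 5.96-fold and 5.70-fold less in the double-null mouse of pairs 1 and 5, against at most 1.61-fold more in a male pair. The mean was -0.62 ± 1.76 (SD, n = 5 pairs). Mt1 and Mt2 are close in sequence, so their transcripts may not be separable on the Mt2 probe.

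Cdkn1a (probe 773) encodes p21, an inhibitor of cyclin-dependent kinases that halts the cell cycle. Its array values were -1.57 and -1.26 in pair 1, 0.70 and 1.62 in pair 2, 1.00 and 1.47 in pair 3, 0.29 and 1.31 in pair 4, and -2.11 and -2.28 in pair 5. Unlike Tsc22d3 and Ddit4, it was lower in pair 5 than in pair 1, with pair means of -2.20 and -1.42. The mean was -0.08 ± 1.61 (SD, n = 5 pairs).

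**Figure D1:**
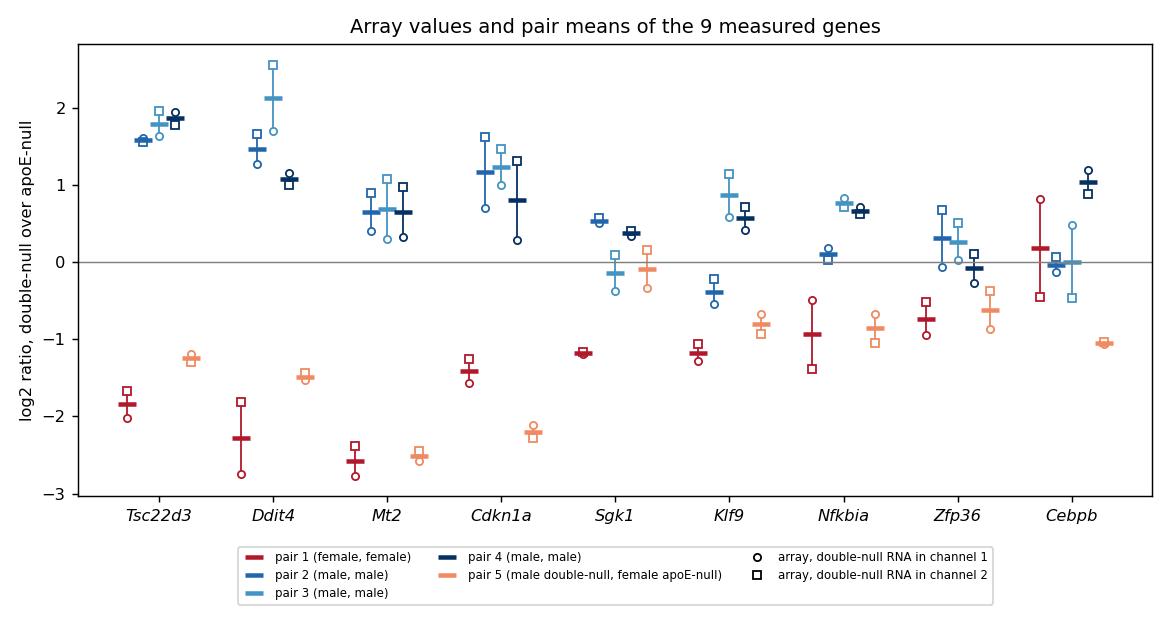
Log2 ratio of double-null over apoE-null for each of the 9 measured genes, with both arrays of each mouse pair joined by a line (circles, double-null RNA in channel 1; squares, channel 2) and a bar at the pair mean. Tsc22d3, Ddit4, Mt2 and Cdkn1a lie below 0 in pairs 1 and 5 and above 0 in the 3 male pairs, while Cebpb does not follow this order.

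Nfkbia, Klf9, Sgk1 and Zfp36 swung less. Nfkbia followed the order in every pair and the others in part. Nfkbia (probe 8237), the inhibitor that holds NF-κB in the cytoplasm, had pair means of -0.94, 0.11, 0.77, 0.67 and -0.86 in pairs 1 to 5. Its arrays in pair 2, 0.19 and 0.02, were close to 0. Klf9 (probe 12282), a zinc finger transcription factor induced by glucocorticoids and thyroid hormone, had pair means of -1.17, -0.38, 0.86, 0.57 and -0.80. Its value in pair 2 was below 0 on both arrays (-0.54 and -0.22), which is why it misses the order.

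Sgk1 (probe 1815), a kinase that regulates ion channels and is induced by both glucocorticoids and mineralocorticoids, had pair means of -1.17, 0.54, -0.14, 0.37 and -0.09. Its swing rested on pair 1, where both arrays were low (-1.19 and -1.16), and in pairs 3 and 5 its 2 arrays lay on opposite sides of 0. Its departure from 0 in pair 5 was the smallest of the 9 genes, while its value in pair 1 equalled the median of the 9 (-1.17). Whether the palindrome in 1 of the 6 Sgk1 windows bears on these values was not tested. Zfp36 (probe 12438) encodes tristetraprolin, which binds AU-rich elements and speeds decay of cytokine transcripts. Its pair means were -0.73, 0.31, 0.27, -0.08 and -0.62, the narrowest span of the 9 genes (1.04).

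Cebpb (probe 8130), a leucine zipper transcription factor of the acute phase response, stood apart. Its pair means were 0.18, -0.03, 0.00, 1.04 and -1.05 in pairs 1 to 5. In pair 1 its arrays disagreed, at 0.81 and -0.45, and in pair 3 they read 0.47 and -0.47. Values well away from 0 on both arrays were found in pair 4 (1.19 and 0.89) and pair 5 (-1.06 and -1.03). Cebpb therefore shared the low value of pair 5 and not that of pair 1.

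As a set, the 9 genes had medians of -1.17, 0.54, 0.77, 0.67 and -1.05 in pairs 1 to 5, against -0.08, -0.03, 0.00, -0.04 and -0.04 for all measured genes. In pair 1, 8 of the 9 were below 0 and in pair 5 all 9 were, while 7, 8 and 8 were above 0 in pairs 2, 3 and 4. Of all measured genes, 42.2%, 46.6%, 49.7%, 44.8% and 43.4% were above 0 in pairs 1 to 5. The span between the highest and lowest pair was 2.09 at the median of the 9 genes, against 0.75 over 3612 probes with 5 pair values. By this span Ddit4 ranked 4, Tsc22d3 ranked 12, Cdkn1a ranked 19 and Mt2 ranked 26 among those 3612 probes, and Zfp36 ranked 920. Both arrays of a pair had the same sign in all 5 pairs for 6 of the 9 genes, all but Sgk1, Zfp36 and Cebpb, and for 12.1% of the 3612 probes. The same-sign count also reflects the choice of genes that swing widely.

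**Figure D2:**
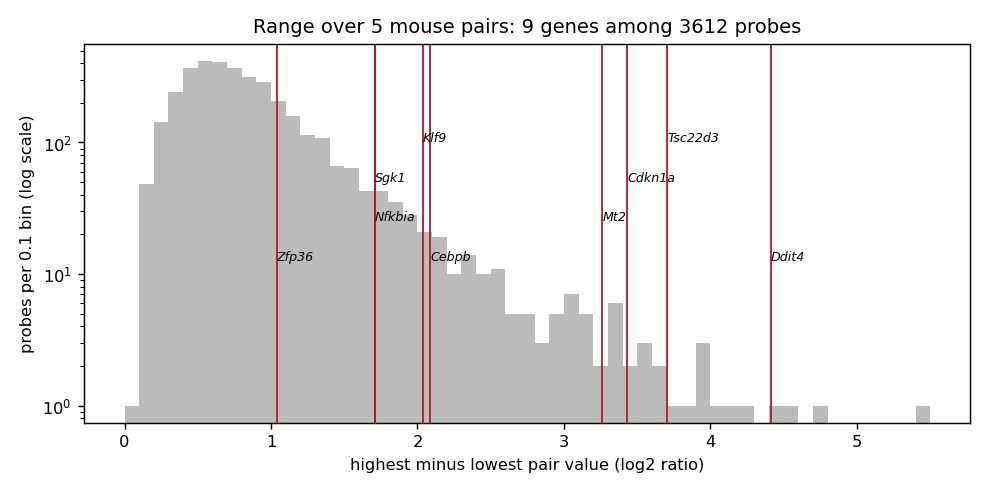
Number of probes (log scale) by the span between the highest and lowest of 5 pair values, in log2 units, with the 9 genes marked by lines. Ddit4, Tsc22d3, Cdkn1a and Mt2 lie in the far right tail, with spans of 4.41, 3.71, 3.43 and 3.26, and Zfp36 lies within the bulk of probes.

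Because the swings oppose each other, the mean difference between the genotypes was small beside its spread. None of the 9 genes passed in limma over 4866 probes, where 0.781% of probes were called, and none had an unadjusted p under 0.05. Their adjusted p-values lay between 0.692 and 0.968, and the median of their means was -0.08, against -0.04 for all tested probes. In the 3 male pairs alone, 3 of the 9 passed, Tsc22d3, Ddit4 and Cdkn1a, against 1.43% of 3854 probes. Their means there were 1.75 ± 0.15, 1.56 ± 0.53 and 1.07 ± 0.23 (SD, n = 3 pairs). Mt2 had 0.66 ± 0.02 (SD, n = 3 pairs) and did not pass. As these values belong to the contrast that chose the genes, nothing further is read from the counts.

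The dye orientation, which the choice of genes did not use, was tested on the dye term of each pair, which is the channel 1 orientation minus the channel 2 orientation, divided by 2. None of the 9 genes had a dye effect in limma at adjusted p under 0.05, against 4.75% of 4866 probes, while 4 of the 9, and 1041 of the 4866 probes, had an unadjusted p under 0.05. Over all probes, 91 effects lay above 0 and 140 below, and with each array centred on its median 54 and 145 did. The dye term was largest for Cdkn1a, at -0.26 ± 0.24 (SD, n = 5 pairs, adjusted p = 0.143 in limma). Zfp36 had -0.25 ± 0.07 (SD, n = 5 pairs, adjusted p = 0.0775 in limma), larger in size than its pair mean in pair 4 and smaller than the others. Tsc22d3 had -0.03 ± 0.12 (SD, n = 5 pairs, adjusted p = 0.833 in limma). Mt2 had -0.24 ± 0.13 and Ddit4 -0.21 ± 0.24 (SD, n = 5 pairs, adjusted p = 0.102 and 0.220 in limma). These terms were small next to the full spans of Tsc22d3, Ddit4, Mt2 and Cdkn1a, but not next to every male pair value. In pairs 2 to 4 Mt2 read 0.41, 0.29 and 0.32 with double-null RNA in channel 1, and 0.89, 1.08 and 0.98 in channel 2. Cdkn1a read 0.29 and 1.31 in pair 4.

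The label of the set was then set against other genes of the same pathways. Of 47 other glucocorticoid-induced genes listed, 24 were measured: 0 rose, 1 fell (Lcn2) and 23 did not pass in limma, against 0.814% of 4299 genes called. Their medians in pairs 1 to 5 were -0.05, -0.21, 0.19, 0.59 and -0.24. These were well short of those of the 9 genes in pairs 1, 3 and 5, of opposite sign in pair 2 and near them in pair 4. Of the 17 measured in every pair, 2 were below 0 in pairs 1 and 5 and above 0 in pairs 2, 3 and 4. These were the growth arrest gene Gadd45g (-0.48, 0.62, 0.52, 0.67 and -0.24) and the thioredoxin-binding Txnip (-0.27, 0.18, 0.14, 0.37 and -0.01), both named after their values were seen.

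The other listed glucocorticoid targets were mixed. Some came near the order, and they are named here after their values were seen. The transcription factor Klf15 read -0.58, -0.30, 1.22, 1.03 and -0.57 in pairs 1 to 5, and the sulfotransferase Sult1a1 read -0.41, -0.13, 0.19, 0.61 and -0.89, so both missed it in pair 2 as Klf9 did. Cd163, a scavenger receptor of macrophages, read -0.13, 0.55, 0.49 and -0.50 in pairs 1, 3, 4 and 5. Cdkn1c, a relative of Cdkn1a, read -0.34, 0.53, 0.86 and 0.84 in pairs 1 to 4. Cd163 and Cdkn1c thus had the signs of the order in the 4 pairs where each was measured. Others went other ways. Of the other genes measured in 4 pairs, Pdk4 read 1.34, 0.69, 2.31 and -1.02 in pairs 1, 3, 4 and 5. In the same pairs Angptl4 read 0.64, 0.40, 1.46 and -0.33, and Mertk read -1.36, -0.21, -0.24 and 0.14. Pdk4 and Angptl4 thus missed the order in pair 1, and Mertk missed it in pairs 3, 4 and 5. Pck1, the rate-limiting enzyme of gluconeogenesis, read 1.82, -0.83, 0.74, 1.14 and -1.50 in pairs 1 to 5, so it was high in pair 1, where Tsc22d3 was lowest. Orm1, an acute phase plasma protein, read 2.40, -0.06, -1.22, 0.94 and 0.98. Lpin1, a phosphatidate phosphatase of fat synthesis, read 1.11, -0.38, -0.97, 0.75 and -0.05. Glul, glutamine synthetase, read -0.05, -0.18, -0.24, 0.59 and -1.40 and shared only the low value of pair 5. Gadd45b was above 0 in every pair (0.26, 0.49, 0.54, 0.41 and 0.19). Tgm2 was below 0 in every pair (-0.60, -0.18, -0.20, -0.09 and -0.24), and Anxa1 read -0.55, -0.66, 0.05, -0.39 and 0.22. Pck1, Orm1, Lpin1, Pdk4, Angptl4, Pnpla2 (1.28) and Mgst1 (0.94) were above 0 in pair 1, where the median of the list was -0.05. In that pair Rgs2 (0.54), Foxo1 (0.29), Gadd45b and Thbd (0.07) were also above 0. The median of the adipocyte markers there was 2.33, and the part of these markers was not tested. The wider list thus followed the 9 genes in some members and not in others, and the set is described here by its leading genes, Tsc22d3, Ddit4, Mt2 and Cdkn1a. Lcn2, an iron-siderophore binding protein, had -1.25 ± 0.26 (SD, n = 3 pairs, adjusted p = 0.0434 in limma over 4299 genes).

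Chaperones and cofactors of the glucocorticoid receptor showed no call among 7 measured genes, and the receptor gene itself was not analysed here. The widest span among those measured in all pairs was that of the chaperone Hsp90aa1, with -1.02, -1.15, 0.63, 0.00 and -0.35. Among metal response genes 4 were measured and none passed. The iron store subunit Fth1 read -0.66, -1.13, -0.45, -0.08 and 0.02, with no high value in the male pairs, in contrast to Mt2.

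The 10 measured NF-κB feedback genes and targets included 2 that fell, the chemokines Cxcl1 (-1.67 ± 0.47, adjusted p = 0.0126 in limma) and Ccl2 (-1.04 ± 0.49, adjusted p = 0.0492; SD, n = 5 pairs each), and 8 that did not pass. Their median was below 0 in every pair, between -0.48 and -0.20, whereas Nfkbia was above 0 in the male pairs. Birc3, an inhibitor of apoptosis, was the 1 gene of this list with the order of signs, at -0.55, 0.02, 0.20, 0.03 and -0.37. Sod2, a mitochondrial superoxide dismutase, read 1.84, -0.28, -0.74, 0.74 and 0.14. Among 12 measured genes of p53, integrated stress and growth arrest none passed. Trp53inp1, a p53-induced nuclear protein, shared the order of signs with Cdkn1a, at -0.86, 0.81, 1.28, 0.61 and -0.50, while Gadd45a, another p53 target, read -0.47, -0.79, -0.83, -0.21 and 0.75.

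Immediate early genes, which are switched on within minutes of a stimulus, had 14 measured members, none called, with pair medians between -0.42 and 0.01. Only Nr4a1, an orphan nuclear receptor, had the order of signs among them (-0.54, 0.39, 0.82, 0.05 and -0.86). Ccn2, also of this list, missed it only in pair 2 (-1.18, -0.01, 0.89, 0.65 and -1.13). Of 5 measured clock genes none passed, and the clock repressor Nfil3 had the order of signs (-0.19, 0.23, 0.89, 0.29 and -0.75). Of 11 heat shock genes none passed, and the chaperone Hsph1 had it (-0.72, 0.35, 0.90, 0.52 and -0.61). None of 6 measured genes listed as C/EBP, KLF, TSC22 and ZFP36 relatives had the order, too few to compare with a share of 4.54% of all genes. Tsc22d1 read 0.36, -0.12, 0.42, -0.37 and 0.70, while Tsc22d2 read -0.78, -0.25, 0.13, 0.16 and -0.30 and missed the order in pair 2. Over all 9 lists, 75 genes were measured in every pair and 7 had the order of signs (9.33%), against the 4.54% of all genes given above. The 3 calls among list genes, Lcn2, Cxcl1 and Ccl2, were sensitive to single pairs: with a pair left out 0 to 1 list genes passed, and none did without pair 3 or pair 4.

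Markers of the cell types that an arch sample can hold were set beside the swings, and their part in them was not tested. Adipocyte markers (13 measured of 17) had pair medians of 2.33, -0.14, -0.55, 0.93 and -0.36, so they were highest in pair 1, where the 9 genes were lowest. Brown fat markers (8 of 9) had 2.23, -0.12, -0.40, 1.44 and -0.54, and macrophage markers (19 of 21) had -1.17, -0.38, -0.71, -0.44 and 0.31. Smooth muscle markers (10 of 14) had -0.50, -0.46, 0.31, 0.04 and -0.44, below 0 in pairs 1 and 5 but also in pair 2. Endothelial markers (11 of 15) shared the order of signs of the 9 genes, but between -0.03 and 0.12. No other marker list had a median below 0 in pairs 1 and 5 and above 0 in the 3 male pairs. Red cell markers (3 of 11) were above 0 in every pair, at 0.38 to 1.58. A ratio gives no level, so which markers were absent from the tissue cannot be read.

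**Figure D3:**
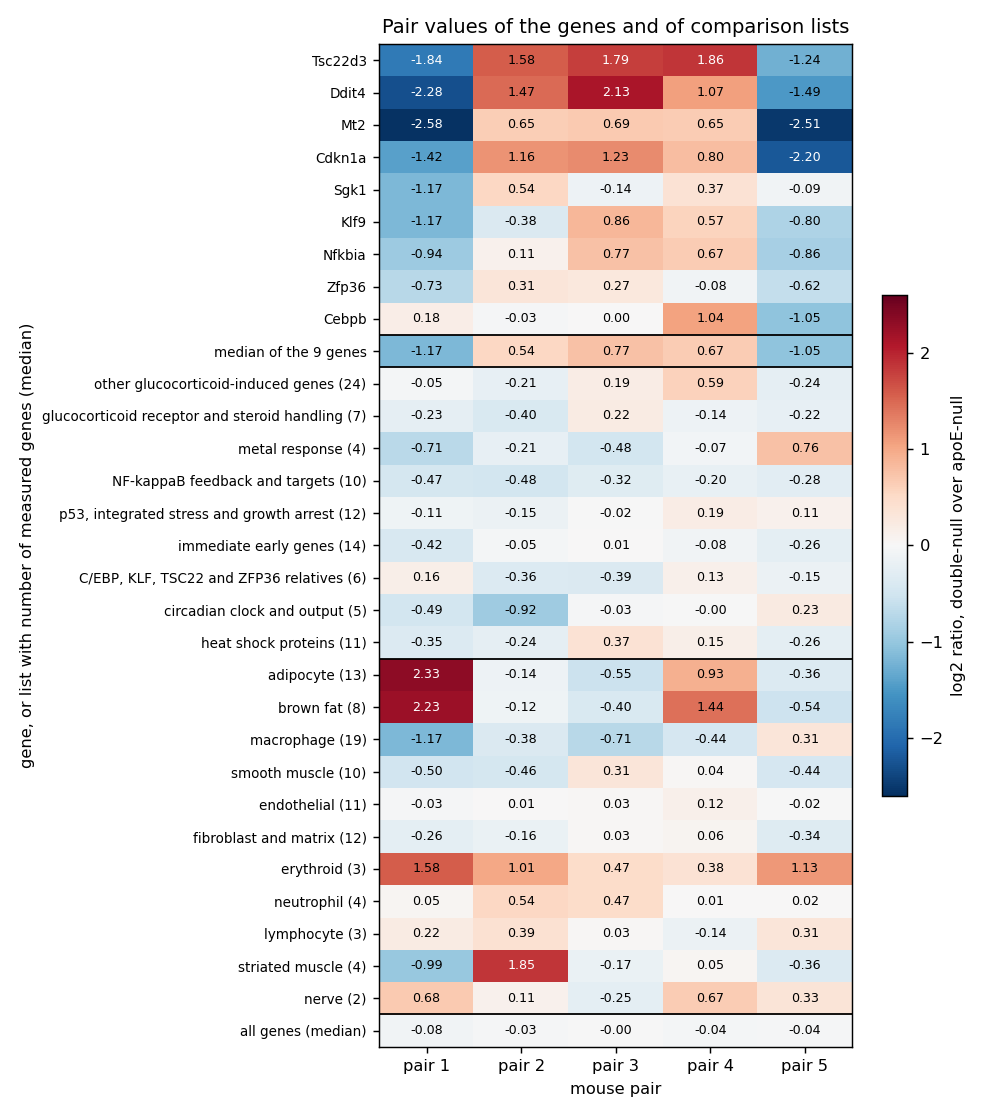
Log2 ratio of double-null over apoE-null in each mouse pair for the 9 genes, their median, the medians of 9 pathway lists and 11 marker lists (number of measured genes in parentheses) and the median of all genes. The rows of the 9 genes are blue in pairs 1 and 5, except Cebpb in pair 1 (0.18), and mostly red in pairs 2 to 4, and no list median repeats this at a similar size.

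The order of signs went with the sex of the apoE-null mouse, female in pairs 1 and 5 and male in the others. It did not go with the sex of the double-null mouse, which was female in pair 1 and male in pair 5. With 2 pairs against 3, and genes chosen for their swing, sex and any other difference between these mice cannot be told apart.

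Among the 3183 other genes measured in all 5 pairs, those nearest to the median of the 9 genes were Ccn2, Fstl1, Fstl3, Haus8 and Col4a1. Likeness was the mean absolute difference of pair values over the 5 pairs, which was 0.15 for Ccn2 and 0.23 for Col4a1, against 0.85 at the median of the other genes. Ccn2, a matricellular protein also called connective tissue growth factor, read -1.18, -0.01, 0.89, 0.65 and -1.13 in pairs 1 to 5. Fstl1, a secreted glycoprotein, read -0.86, 0.58, 0.78, 0.59 and -0.53, and Fstl3, which binds activin, read -0.98, 0.11, 0.80, 0.35 and -0.92. Haus8, a subunit of the augmin complex of the spindle, read -0.94, 0.24, 0.72, 0.76 and -0.58. Col4a1, a basement membrane collagen, read -1.06, 0.86, 0.65, 0.58 and -0.54. Of the 9 genes themselves, Nfkbia (0.17) lay nearest to their median and Ddit4 (0.85) farthest.

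**Figure D4:**
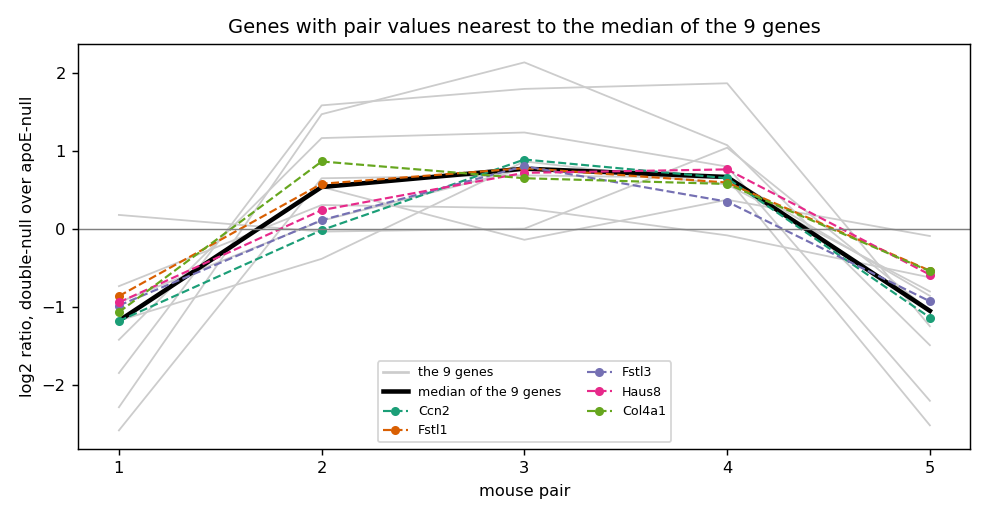
Log2 ratio of double-null over apoE-null by mouse pair for the 9 genes (grey), their median (black) and the 5 other genes with the smallest mean absolute difference from that median (dashed). Ccn2 follows the median most closely, with a value near 0 in pair 2.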

How the data were processed

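RNA of mouse aortic arch was amplified, labelled chemically and hybridised to two-colour arrays, read with a GenePix scanner and analysed in GeneSpring, per the labels' protocols. The deposited values are log2 ratios, which the authors set with apoE-null on top on all arrays, per the array titles. How they were normalized was not given in the sources used here, nor was the reason for blank cells. Array medians of the turned ratios lay between -0.09 and 0.01, so no further scaling was applied.

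Ratios were negated, and the 2 arrays of a pair, which hold the same RNA in opposite dyes, were averaged. Across probes, Pearson's r between partner arrays, which have opposite dyes, was 0.56, 0.31, 0.04, 0.19 and 0.46 for pairs 1 to 5. Between arrays of different pairs it was 0.01 to 0.48 in the same dyes and -0.32 to 0.15 in opposite dyes. The partner arrays of pairs 3 and 4 were thus less alike than the arrays of these pairs with double-null RNA in channel 2 (0.41). A probe needed both arrays of 3 pairs. Genotype and dye were tested with limma 3.58.1 (lmFit, eBayes, two-sided, R 4.3.3) against 0, with Benjamini-Hochberg adjustment over all probes, or over genes for lists, and a threshold of 0.05. The fit was also run on simulated data, with added shifts larger than the genotype means given here, so that run does not speak for smaller effects. Mice carry separate numbers in the labels, and p-values rest on the spread between pairs. The number of mouse pairs limits the precision. Scanner intensities were not used here.

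Of 13872 probes, 12143 had 1 symbol, 49 several and 1680 none; 12009 symbols were matched by Entrez identifier to RefSeq names. List genes were named from those past the threshold and up to 4 per list with the widest span over 5 pairs, though not all of these are printed. Gadd45g, Txnip, Klf15, Sult1a1, Cd163, Cdkn1c, Pdk4, Angptl4, Mertk, Pnpla2 and Mgst1 fall outside this rule and were named after their values were seen. The same holds for Gadd45b, Tgm2, Anxa1, Rgs2, Foxo1 and Thbd. The 5 genes nearest to the median of the 9 genes were named as well. The genes and lists were chosen with earlier results of these data known. Alternatives left out pairs, centred arrays, changed filters or the empirical Bayes step, and took single orientations or male pairs alone.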

Additional observations from a re-analysis of the deposited data

Results flagged for a closer look

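For 5 of the 9 genes the female pair 1 lay below 0 while all 3 male pairs lay above 0. With pair 5 also below 0, as in these 5 genes, the share was 4.54% of 3192 genes. Pair 1 minus the mean of male pairs 2 to 4 was -3.59 for Tsc22d3, -3.84 for Ddit4, -3.24 for Mt2, -2.48 for Cdkn1a and -1.45 for Nfkbia, in log2 units. These differences were not tested: there is 1 all-female pair, and the genes were chosen for their swing. Among 30 groups of 5 pair values or list medians, none had a pair whose gap to the nearest other passed Dixon's critical value of 0.71, where chance flags about 1 in 20. This check cannot flag either of 2 low pairs that lie close together, as in Mt2 (-2.58 and -2.51 in pairs 1 and 5). For genes with the order of signs, nothing is therefore concluded from it.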

How the results depend on the processing

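The number of probes called for genotype, 38 over 5 pairs, lay between 0 and 25 when a pair was left out (0 in limma without pair 4, where 325 had an unadjusted p under 0.05), and was 59 and 119 with double-null RNA in channel 1 or in channel 2 alone. The count among the 9 genes stayed at 0 in all settings tried but the male pairs alone, where it was 3. The dye count, 231 probes, lay between 110 and 222 with a pair left out and was 85 in the male pairs. Among the 9 genes it was 0, except with values in all 5 pairs only, where it was 1 (Zfp36). Of the pathway list genes, 3 were called, and 0 to 1 with a pair left out. Of 108 means of the 9 genes under 12 settings, 23 changed sign, none of them for Tsc22d3. With a pair left out the means of Tsc22d3 (0.07 to 1.00), Mt2 (-0.95 to -0.13) and Zfp36 (-0.29 to -0.03) kept their sign but moved widely. The others ranged from -0.31 to 0.80 for Ddit4, -0.41 to 0.44 for Cdkn1a, -0.26 to 0.17 for Sgk1, -0.45 to 0.063 for Klf9, -0.26 to 0.17 for Nfkbia and -0.22 to 0.30 for Cebpb. In the male pairs alone the means that changed sign were 0.66 for Mt2, 1.07 for Cdkn1a, 0.26 for Sgk1, 0.35 for Klf9, 0.51 for Nfkbia and 0.16 for Zfp36. Those that changed sign in the channel 1 orientation were -0.030 for Ddit4 and 0.11 for Nfkbia, and in the channel 2 orientation 0.17 for Cdkn1a, 0.015 for Sgk1, 0.077 for Zfp36 and -0.20 for Cebpb. The cause was not tested. The order of signs, in settings added after the data were seen, held for 5 genes with arrays centred, 5 in the channel 1 and 6 in the channel 2 orientation. With arrays centred, the medians of the 9 genes were -1.11, 0.55, 0.78, 0.69 and -1.01 in pairs 1 to 5. No paired analysis beyond this was possible because each ratio already sets the 2 mice of a pair against each other.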

Other observations

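Genes outside the 9 and the lists that kept the same order of signs with every pair value past 0.5 in size were 4 in number, and they were named after their values were seen. They were the receptor kinase Ltk (-0.66, 1.22, 0.54, 0.60 and -0.92 in pairs 1 to 5), the hyaluronan-binding Tnfaip6 (-1.02, 0.88, 0.50, 0.88 and -0.85), and Col4a1 and Fstl1, whose values are given above.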
